A study of Mus musculus with 6 samples.

Results

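The AP-1 and Batf factors are described here in sorted splenic CD4+ T cells of the mouse, as 9 genes taken by name: *Fos*, *Fosb*, *Fosl2*, *Jun*, *Junb*, *Jund*, *Batf*, *Batf3* and *Atf3*. All 9 were found among the 45777 genes of the deposited tables, and all 9 passed the filter of edgeR that removes genes with few counts. RNA was sequenced in bulk after splenic CD4+ T cells had been sorted by flow cytometry into CD4+Lrig1+ and CD4+Lrig1- T cells, from mice that were female, 7 weeks old and of the inbred strain C57BL/6. Lrig1 is a transmembrane protein that restrains growth factor receptors, and both groups come from the same tissue, strain, sex and age, with no treatment named. The labels list 3 samples in each group and do not say whether they came from separate mice. The data used are 2 libraries of each group, held as 1 of each in 2 tables, which are called set 1 and set 2 here. They are named the Lrig1+ and Lrig1- libraries of each set.

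AP-1 is a transcription factor made of a pair of bZIP proteins, in which a leucine zipper holds the partners together and a basic region contacts DNA. Jun proteins pair with each other or with Fos proteins, while Batf and Batf3 lack an activation domain of their own, pair with Jun proteins and act together with Irf4 or Irf8. In T cells, AP-1 is induced within minutes of stimulation of the antigen receptor, and Batf is needed for the regulatory T cells (T cells that hold other T cells in check and express Foxp3) of non-lymphoid tissues.

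The promoters are shown first, because several of these genes are known to be bound by bZIP factors themselves. RefSeq gave a promoter for all 9 genes on GRCm38.p6, and the 250 bases before the start site were searched on both strands for TGACTCA (the AP-1 site), TGACGTCA (the cAMP response element), TGACATCA, the core TGACG and the CArG box of serum response factor. The 4 below are given 5′ to 3′ in the direction of the gene, with every match in capitals, because they hold the single TGACATCA of the group (*Jun*), 2 cores (*Fos*), the core of the gene that differed most clearly between the groups (*Batf*) and a core on the other strand, read as CGTCA, next to the start site (*Atf3*).
Jun (GRCm38.p6 chr4:95052223-95052472, minus strand): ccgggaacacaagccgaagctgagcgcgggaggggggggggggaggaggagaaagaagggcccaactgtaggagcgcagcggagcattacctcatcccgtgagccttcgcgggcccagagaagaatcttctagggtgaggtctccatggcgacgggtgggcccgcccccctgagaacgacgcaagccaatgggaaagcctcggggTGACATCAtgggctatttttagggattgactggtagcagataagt
Fos (GRCm38.p6 chr12:85473640-85473889, plus strand): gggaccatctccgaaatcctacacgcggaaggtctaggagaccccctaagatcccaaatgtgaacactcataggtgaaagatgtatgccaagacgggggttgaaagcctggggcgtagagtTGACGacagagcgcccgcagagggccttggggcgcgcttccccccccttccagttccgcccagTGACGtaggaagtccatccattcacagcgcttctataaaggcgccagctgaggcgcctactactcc
Batf (GRCm38.p6 chr12:85686470-85686719, plus strand): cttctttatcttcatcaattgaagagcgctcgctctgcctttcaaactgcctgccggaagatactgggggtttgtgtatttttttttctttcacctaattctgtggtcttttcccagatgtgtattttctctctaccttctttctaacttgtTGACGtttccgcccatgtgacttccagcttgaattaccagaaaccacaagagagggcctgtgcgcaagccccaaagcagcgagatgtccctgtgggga
Atf3 (GRCm38.p6 chr1:191183334-191183583, minus strand): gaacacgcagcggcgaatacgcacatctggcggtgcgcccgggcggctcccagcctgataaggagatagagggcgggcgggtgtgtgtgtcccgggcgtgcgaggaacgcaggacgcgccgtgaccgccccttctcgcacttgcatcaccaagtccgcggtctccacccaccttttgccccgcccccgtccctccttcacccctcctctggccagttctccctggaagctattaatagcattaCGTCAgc
TGACATCA stood 45 to 38 bases before the start site of *Jun*, and 2.93% of all 32851 promoters of the same length held it. The core TGACG was found in 5 of the 9 promoters (*Fos*, *Fosb*, *Junb*, *Batf* and *Atf3*) and in 17.8% of all promoters. Of their bases, 46.4% (*Batf*) to 68.8% (*Fosb*) were G or C, against a median of 52.4% over all promoters. The share was not matched for this content. For *Fosb*, RefSeq's promoter belongs to a start site inside the span that the tables give for the gene, and the match lies within that span. In *Fos* it began 129 and 66 bases before the start, and in *Batf* 98 bases before it. TGACTCA, TGACGTCA and the CArG box were not found in these windows in any of the 9, and 4.46%, 1.55% and 1.47% of all promoters held them. A match describes letters in a window and is not a measure of binding.

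The libraries held 44865070 to 59977951 estimated counts. After TMM normalization, 16123 genes were tested. Set 1 and set 2 stood further apart than the groups did, since log2 CPM (counts scaled to library size) across genes correlated at 0.960 and 0.959 between the groups within a set and at 0.908 between the sets within a group. *Lrig1*, the gene of the sort, was at 221 and 75.4 CPM in the Lrig1+ and Lrig1- libraries of set 1 and at 129 and 36.7 CPM in those of set 2. *Foxp3* was at 589 and 48.9 CPM in set 1 and at 615 and 30.7 CPM in set 2, and the T cell markers *Cd3e*, *Cd3d*, *Cd3g* and *Cd4* were at 191 to 1099.8 CPM over the 4 libraries. In bulk RNA, fewer cells of a type and less RNA per cell cannot be told apart.

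Read per length, the 9 genes spanned a wide range of levels. *Junb*, a Jun protein that is a weaker activator than Jun itself, had the highest mean FPKM (mapped fragments relative to transcript length and library size) at 375, from 257 to 499 over the 4 libraries. *Jund*, the Jun protein of resting cells, followed at a mean of 101 FPKM, from 92.2 to 116, and lay below *Junb* in each library. *Fos*, *Batf* and *Jun* came next, at means of 51.7, 45.1 and 34.0 FPKM. Their ranges overlapped, so that the order among these 3 was not the same in all libraries. *Fosb*, *Fosl2* and *Atf3* had means of 4.96, 2.39 and 2.18 FPKM with overlapping ranges, and *Batf3* had the lowest mean, 0.559 FPKM. It was the lowest of the 9 in 3 libraries, and in the Lrig1- library of set 2 it stood above *Atf3*.

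The Jun genes together made up 76.1% to 85.9% of the summed FPKM of the 9, and the Fos genes 7.70% to 10.7%. The Batf genes took 6.60% and 2.94% in the Lrig1+ and Lrig1- libraries of set 1. In set 2 they took 16.1% and 6.31%. Within each set the share of the Batf genes was thus the higher in CD4+Lrig1+ T cells. *Batf* was at 10.4 FPKM for each 100 FPKM of *Junb* in the CD4+Lrig1+ library of set 1 and at 4.24 in the CD4+Lrig1- library. In set 2 the values were 31.4 and 10.3. These shares come from 1 library per group and set and carry no test.

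**Figure D1:**
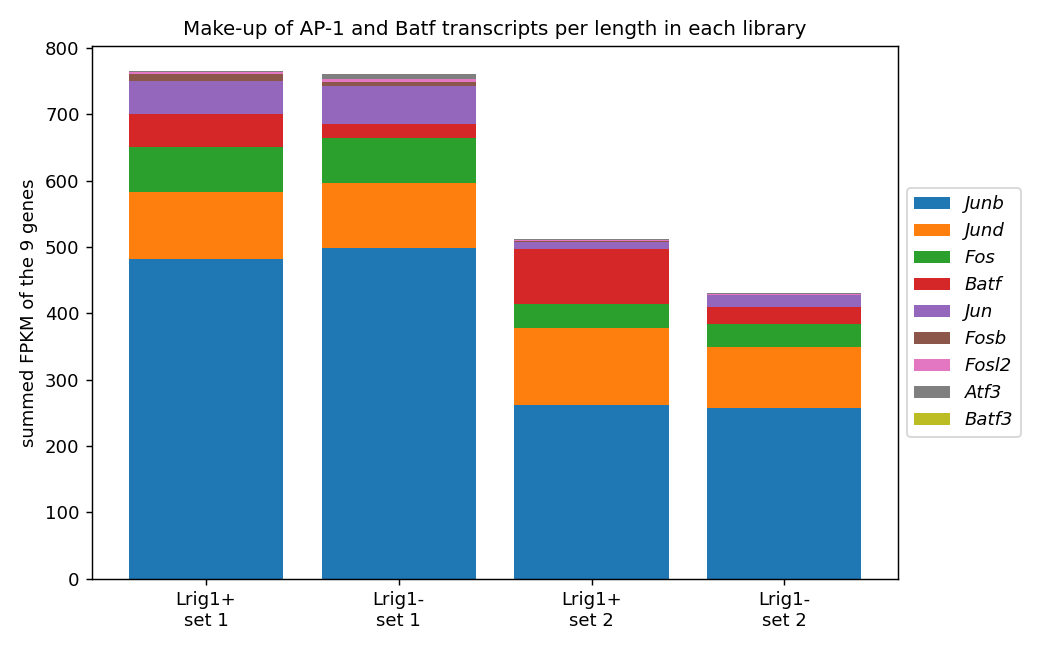
Stacked bars give the FPKM of each of the 9 genes in each library (y axis, summed FPKM), with an Lrig1+ and an Lrig1- bar for each set. *Junb* is the largest segment of every bar, the bars of set 1 are taller (765 and 761 FPKM) than those of set 2 (512 and 431), and the *Batf* segment is the larger in CD4+Lrig1+ T cells of both sets.

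The question of the comparison was how these factors differ between CD4+ T cells with and without Lrig1. *Batf* was higher and *Batf3* lower in both CD4+Lrig1+ libraries than in either CD4+Lrig1- library, while the most abundant members, *Junb*, *Jund* and *Fos*, differed by at most 1.18-fold within a set. *Fosb* was higher, and *Fosl2* and *Jun* were lower, in CD4+Lrig1+ T cells within each set, with differences smaller than those between the sets. *Atf3* stood out in 1 library alone. The groups did not overlap for 2 of the 9 genes, against 26.1% of the 16123 genes tested (14.3% higher, as *Batf*, and 11.8% lower, as *Batf3*). *Batf* was at least 2-fold higher in both sets, as were 7.37% of all genes, and *Batf3* at least 2-fold lower in both, as were 3.01%. *Batf3*, with 6 to 44 counts, passed the filter through the Lrig1- libraries, where it is high, so these shares cannot weigh its difference. The sign was the same in both sets for all 9, higher for 3 and lower for 6, against 77.7% of all genes (36.5% higher and 41.3% lower), but the signs of *Fos*, *Junb* and *Atf3* were not kept in set 2 when FPKM replaced CPM.

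**Figure D2:**
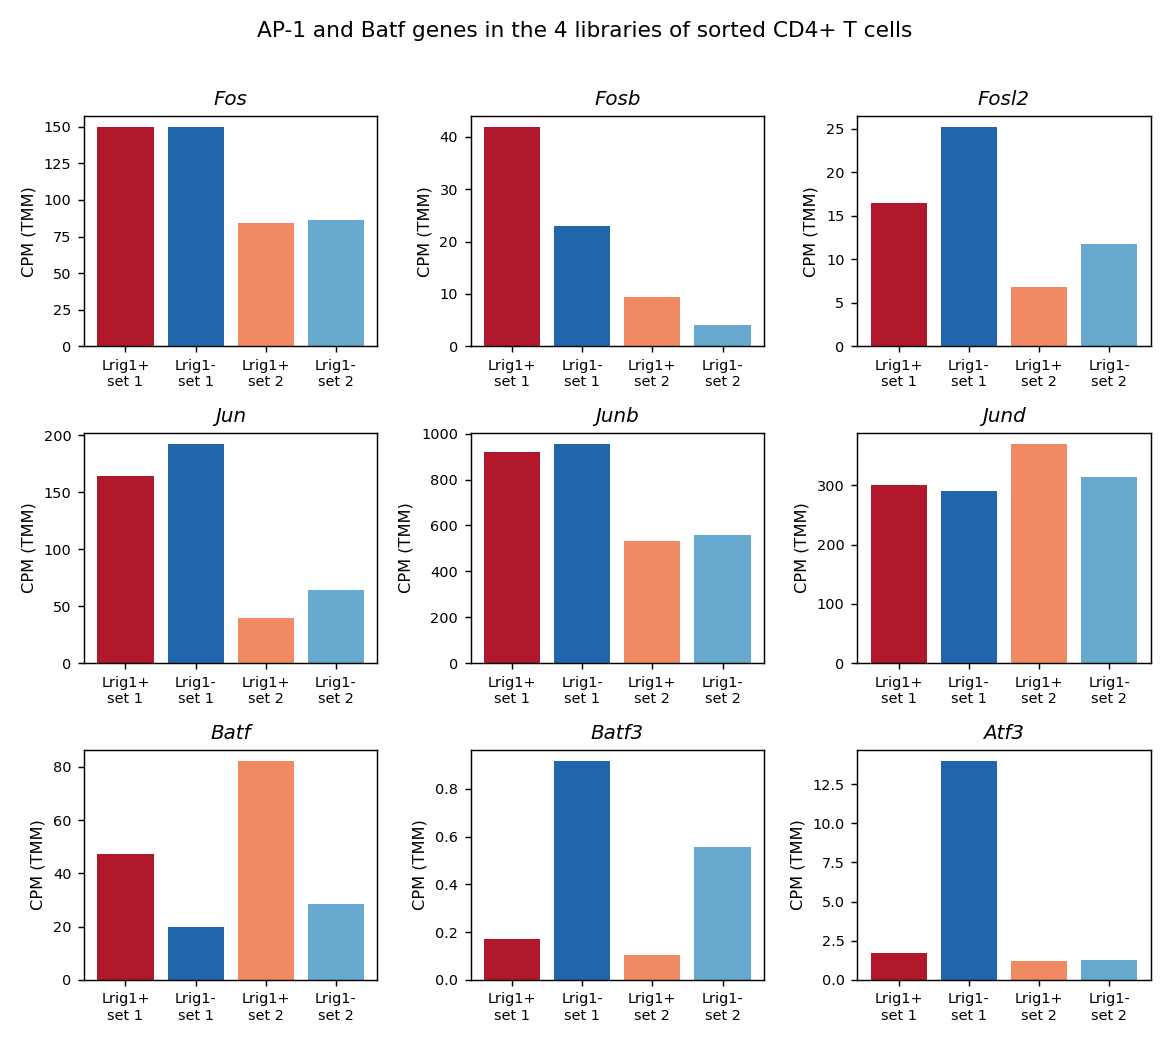
Each panel gives 1 gene, with TMM-normalized CPM on a linear y axis that starts at 0 and 1 bar for each library, CD4+Lrig1+ and CD4+Lrig1- of set 1 and then of set 2. The 2 CD4+Lrig1+ bars are the highest for *Batf* and the lowest for *Batf3*, the set 1 bars are the higher ones for *Fos*, *Fosb*, *Fosl2*, *Jun* and *Junb* within each group, and 1 bar stands apart for *Atf3*.

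With p adjusted by Benjamini-Hochberg, edgeR's quasi-likelihood test called 0 of the 9 genes at an adjusted p under 0.05 when fitted with the group alone, and 0 of all genes in either direction (0%). At an unadjusted p under 0.05 it gave 2 of the 9, *Batf* among the 4.18% of all genes that were higher and *Batf3* among the 1.41% that were lower. The DESeq2 Wald test and edgeR's exact test, also without a term for the set, called 0 of the 9, against 1.94% and 1.32% of all genes. Because the sets differed, the fit was repeated with a further term for the table (the table block), which leaves 1 residual degree of freedom. With it, 2 of the 9 were called higher (*Fosb* and *Batf*) and 3 lower (*Fosl2*, *Jun* and *Batf3*, the last of which passed the filter through the Lrig1- libraries, where it is high), against 14.6% and 12.8% of all genes (27.4% in either direction). The other 3 fits with the block called 23.6% (DESeq2 Wald test), 18.2% (limma on log2(FPKM + 1)) and 28.5% (edgeR with DESeq2 size factors) of all genes in either direction, and 4, 3 and 5 of the 9. *Batf3* was among the calls of limma and of edgeR with DESeq2 size factors. p-values here measure the spread between these libraries, which may be technical. In edgeR's quasi-likelihood test that spread is also drawn from other genes, with a median of 6.21 prior degrees of freedom with the block and 2.02 without it. With 2 against 2 and no block, an exact permutation test of 1 gene cannot go below 0.333. Swaps within a table alone allow fewer arrangements, so the limit with the block is higher.

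*Batf* had 2458 estimated counts in the CD4+Lrig1+ library and 955 in the CD4+Lrig1- library of set 1, or 47.3 and 19.9 CPM. In set 2 it had 4730 and 1536 counts, or 82.4 and 28.4 CPM. Both Lrig1+ libraries stood higher than either Lrig1- library. The ratio between the groups was 2.37-fold in set 1 (95% counting interval 2.20 to 2.56) and 2.90-fold in set 2 (2.73 to 3.07). Here and below these intervals are exact Clopper-Pearson ones and cover counting error only. The group means were 64.8 ± 24.8 CPM (SD, n = 2) and 24.2 ± 6.01 CPM (SD, n = 2), and the log2 fold change was 1.42 (standard error 0.43). edgeR's quasi-likelihood test gave an adjusted p of 0.728 without and 1.08e-04 with the table block, and *Batf* was called in all 4 fits that had the block. The gene lies on chromosome 12 of GRCm38 from 85686720 to 85709087, 209 kb from *Fos*.

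Genes of the *Batf* setting were read from a list of 10 partner genes and a list of 16 genes of tissue regulatory T cells that are linked to Batf. *Irf4*, which binds DNA together with Batf, was at 97.4 and 19.9 CPM in the Lrig1+ and Lrig1- libraries of set 1 and at 82.0 and 25.9 CPM in set 2, and was called with the table block (log2 fold change 1.97). Of the 10 partners, 3 were called higher with the block (*Irf4*, *Nfatc1* and *Ikzf2*) and 1 lower (*Runx1*), against 14.6% and 12.8% of all genes, and 5 were higher in both sets, against 36.5%. *Ikzf2*, which encodes the regulatory T cell factor Helios, was at 637 and 56.3 CPM in set 1 and at 266 and 17.9 CPM in set 2. *Irf8*, the other interferon regulatory factor that pairs with Batf, was at 43.3 and 25.5 CPM in set 1 and at 56.9 and 61.8 CPM in set 2, so that its sign was not shared by the sets. Of the 16 tissue regulatory T cell genes, 14 were higher in both sets, against 36.5% of all genes, and with the block 12 were called higher and 2 lower, against 14.6% and 12.8%. Their median log2 fold change was 1.41, against -0.04 over all genes tested, and their summed level was 1014 and 1210.1 CPM in the Lrig1+ and 330.4 and 371 CPM in the Lrig1- libraries. Examples are *Ctla4*, an inhibitory receptor, at 301 and 31.3 CPM in set 1 and 211 and 16.9 CPM in set 2, and *Ccr8*, a chemokine receptor, at 23.8 and 2.74 CPM in set 1 and 23.5 and 3.17 CPM in set 2. The 2 genes called lower were *Gzmb* and *Cxcr6*, a granule protease and a chemokine receptor of effector cells. Without the block, 0 genes of either list passed the quasi-likelihood test. *Foxp3* moved with *Batf* (log2 ratio 3.59 and 4.33 in the sets), and the part of the share of Foxp3+ cells in the level of *Batf* was not tested.

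*Batf3*, which is known for its need in the development of cross-presenting dendritic cells, was scarce. It had 9 and 44 estimated counts in the Lrig1+ and Lrig1- libraries of set 1, or 0.173 and 0.919 CPM. In set 2 it had 6 and 30 counts, or 0.104 and 0.555 CPM. Both Lrig1+ libraries stood lower than either Lrig1- library, and the gene passed the filter on low counts through the latter, so that its entry into the test rested on the group where it is high. It was 5.31-fold lower in set 1 (2.56 to 12.4) and 5.32-fold lower in set 2 (2.18 to 15.6). The log2 fold change was -2.39 (standard error 0.85), and edgeR's quasi-likelihood test gave an adjusted p of 0.886 without and 0.0272 with the table block. The DESeq2 Wald test with the block gave 0.0881. Dendritic cell markers moved with it: 6 of 7 were lower in the Lrig1+ library of both sets, against 41.3% of all genes. Their summed level was 13.7 to 14.3 CPM in the Lrig1+ and 59.0 to 61.5 CPM in the Lrig1- libraries, and none of the 7 was at 0. The exception was *Xcr1*, a marker of cross-presenting dendritic cells, at 0.923 and 0.251 CPM in set 1 and at 1.41 and 0.833 CPM in set 2. *Flt3*, a growth factor receptor of dendritic cell precursors, was at 1.63 and 9.54 CPM in set 1 and at 0.905 and 7.18 CPM in set 2. Their part in the level of *Batf3* was not tested.

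*Atf3*, a stress-induced bZIP factor that can repress transcription, had 89 and 671 estimated counts in the Lrig1+ and Lrig1- libraries of set 1, or 1.71 and 14.0 CPM. In set 2 it had 69 and 68 counts, or 1.20 and 1.26 CPM. The CD4+Lrig1- library of set 1 was far above the other 3, which lay close together, and the groups overlapped. The gene was 8.19-fold lower in CD4+Lrig1+ T cells in set 1 (6.56 to 10.3), while in set 2 the ratio was 1.05-fold (0.739 to 1.49), an interval that includes no difference. The log2 fold change was -2.39 (standard error 1.26) without the table block and -1.72 (standard error 0.62) with it, and edgeR's quasi-likelihood test gave an adjusted p of 1.00 and 0.0817. Without the CD4+Lrig1- library of set 1 the log2 fold change was 0.25, so the value rested on that library. *Atf3* lies 61.4 kb from *Batf3* on chromosome 1 (191170296 to 191183333 and 191098414 to 191108943).

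**Figure D3:**
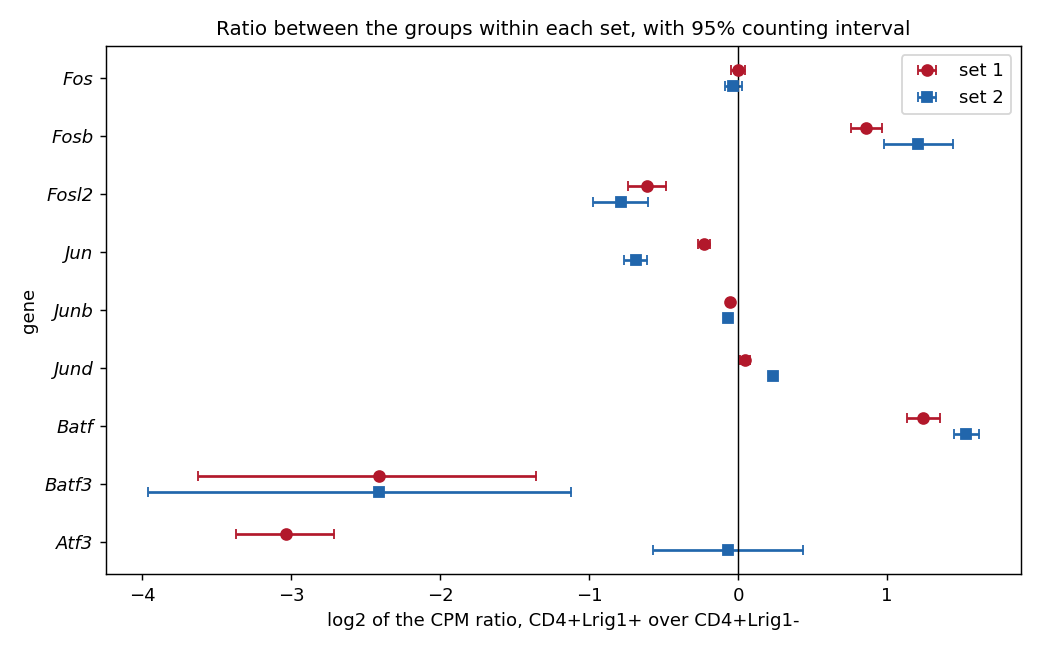
Points give the log2 of the CPM ratio of Lrig1+ to Lrig1- libraries for each gene (y axis), with circles for set 1 and squares for set 2, no prior count added, and bars for the 95% counting interval. The sets lie close together for *Fos*, *Junb* and *Batf3*, the intervals of the sets do not overlap for *Fosb*, *Batf*, *Jun*, *Jund* and *Atf3*, and the sets are widest apart for *Atf3*, which was 8.19-fold lower in set 1 and 1.05-fold lower in set 2.

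Among the Fos genes, *Fos* itself, the partner of Jun in the classical AP-1 dimer, had nearly the same level in both groups. It was at 149.6 and 149.8 CPM in the Lrig1+ and Lrig1- libraries of set 1 and at 84.2 and 86.1 CPM in set 2. The libraries of set 1 were the higher ones in each group. The ratios were 0.999-fold (0.967 to 1.03) and 0.979-fold (0.940 to 1.02), and with the table block the log2 fold change was -0.02 (standard error 0.07) with an adjusted p of 0.895 from edgeR's quasi-likelihood test. The 3 genes with the profile over the 4 libraries nearest to that of *Fos*, by distance between centred log2 CPM, were *Gprasp1*, *Tpra1* and *Zfp346*, and those nearest to *Batf* were *Ptms*, *H1f0* and *Gm8369*, of 8824 genes compared. With 4 libraries and so many genes, close profiles can arise for any gene, and nearness does not measure shared regulation.

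*Fosb*, a Fos protein of the immediate early response, was at 41.9 and 23.0 CPM in the Lrig1+ and Lrig1- libraries of set 1 and at 9.37 and 4.05 CPM in set 2. It was higher in CD4+Lrig1+ T cells within each set, while both libraries of set 1 lay above both of set 2, so that the groups overlapped. The ratio was 1.82-fold in set 1 (1.69 to 1.96) and 2.31-fold in set 2 (1.97 to 2.72). The log2 fold change was 0.92 (standard error 1.15) with an adjusted p of 1.00 from edgeR's quasi-likelihood test, and with the table block it was 1.01 (standard error 0.12) with an adjusted p of 0.00093. All 4 fits with the block called it.

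*Fosb* was the only one of the 9 with more than 1 transcript that held at least 5% of its counts. Its variant 2 (NM_001347586), which is 140 bases shorter than variant 1 (NM_008036) and encodes the truncated form known as ΔFosB, took 23.4% of the 2177 counts in CD4+Lrig1+ T cells of set 1 (21.7% to 25.3%) and 11.8% of the 1103 counts in CD4+Lrig1- T cells (9.94% to 13.8%). In set 2 it was assigned 49.3% of 538 counts (44.9% to 53.6%) and 0 of 219 counts (0% to 1.67%). The assigned share was the higher in CD4+Lrig1+ T cells in each set. The other transcript, XM_006539543, took 19.8% and 24.5% in set 1 and 0 counts in both libraries of set 2. The assembler divided reads that the transcripts share, so the split is less certain than the sum. The intervals do not cover the error of that division. An assigned share of 0 therefore does not bound the true share, and a difference in share between the groups was not tested.

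*Fosl2*, a later and longer-lived Fos protein, was at 16.5 and 25.2 CPM in the Lrig1+ and Lrig1- libraries of set 1 and at 6.81 and 11.8 CPM in set 2. It was the lower in CD4+Lrig1+ T cells within each set, and the groups overlapped. It was 1.53-fold lower in set 1 (1.40 to 1.67) and 1.73-fold lower in set 2 (1.52 to 1.96). With the table block the log2 fold change was -0.69 (standard error 0.11) with an adjusted p of 0.00375 from edgeR's quasi-likelihood test, and limma on log2(FPKM + 1) with the block gave an adjusted p of 0.0686. Without the block the adjusted p was 1.00.

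Among the Jun genes, *Jun*, whose protein is phosphorylated by the kinase JNK, was at 164 and 193 CPM in the Lrig1+ and Lrig1- libraries of set 1 and at 39.7 and 64.0 CPM in set 2. The sets were far apart, and within each of them CD4+Lrig1+ T cells had the lower level. The gene was 1.17-fold lower in set 1 (1.14 to 1.21) and 1.61-fold lower in set 2 (1.53 to 1.70). With the table block the log2 fold change was -0.45 (standard error 0.11) and edgeR's quasi-likelihood test gave an adjusted p of 0.0221. limma with the block gave 0.0765, and edgeR's quasi-likelihood test without it gave 1.00.

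*Junb* was at 922 and 956 CPM in the Lrig1+ and Lrig1- libraries of set 1 and at 533 and 560 CPM in set 2. The groups differed by less than the sets, at 1.04-fold and 1.05-fold lower in CD4+Lrig1+ T cells. *Jund* was at 299.8 and 290.0 CPM in set 1 and at 370.1 and 315 CPM in set 2, or 1.03-fold and 1.18-fold higher. It was the only one of the 3 Jun genes with higher levels in set 2 than in set 1. With the table block the log2 fold change was -0.06 (standard error 0.09) for *Junb* and 0.14 (standard error 0.09) for *Jund*, with adjusted p of 0.685 and 0.281 from edgeR's quasi-likelihood test. None of the 4 fits with the block called either gene or *Fos*.

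**Figure D4:**
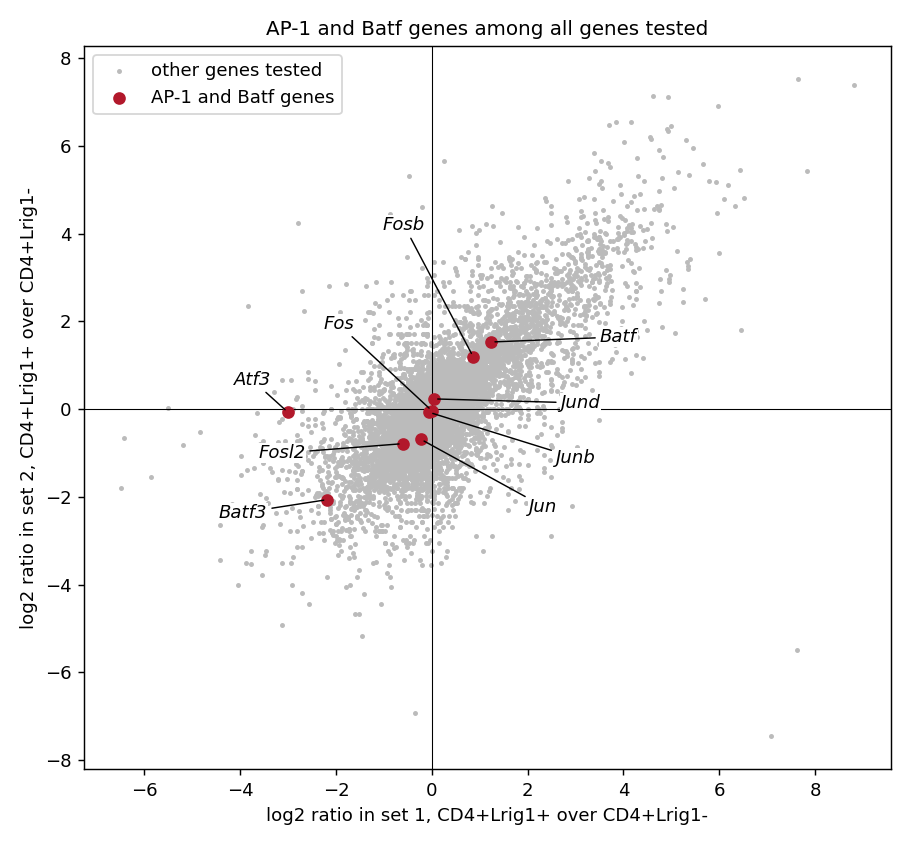
Each grey point is 1 of the 16123 genes tested, with its log2 ratio between the groups (Lrig1+ over Lrig1-) in set 1 on the x axis and in set 2 on the y axis, and the 9 genes in red. *Batf* (1.24 and 1.53) and *Fosb* (0.86 and 1.20) lie in the upper right, *Batf3* (-2.18 and -2.06) in the lower left, *Atf3* (-3.01 and -0.07) near the horizontal axis, and *Fos*, *Junb* and *Jund* near the origin.

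The 9 genes also differed in level between the sets. On the log2 scale and over both groups, *Fosb* was higher in set 1 than in set 2 by 2.33, *Jun* by 1.82 and *Fosl2* by 1.19. *Junb* and *Fos* were higher by 0.78 and 0.81. *Jund* and *Batf* went the other way, with -0.21 and -0.66. In all, 4 of the 9 were at least 2-fold higher in set 1 (*Atf3* being the fourth, through 1 library), against 22.5% of all genes tested, whose median was 0.02. What else differs between the tables is not given in the sources used here.

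The signals that act on AP-1 were read from a list of 33 genes, most of them of the MAP kinase and antigen receptor paths. Of these, 10 were higher and 18 lower in both sets, against 36.5% and 41.3% of all genes. With the table block 5 were called higher and 11 lower, against 14.6% and 12.8% of all genes, and without it 0 passed. The median log2 fold change was -0.11, against -0.04 over all genes tested. *Map3k8*, a kinase upstream of ERK, was at 19.3 and 8.35 CPM in the Lrig1+ and Lrig1- libraries of set 1 and at 10.6 and 4.72 CPM in set 2. *Map3k5*, a stress kinase upstream of JNK, had log2 ratios of 0.73 and 0.87, and *Elk3*, an Ets factor that binds with serum response factor, had 0.67 and 0.75. These 3 were called higher with the block, as were *Map2k3* and *Mapk11*. Among the 11 called lower was *Rasgrp1*, an activator of Ras in T cells, at 400.4 and 581 CPM in set 1 and at 291 and 514 CPM in set 2. *Nras* was another, with a log2 fold change of -0.53 in the fit with the block.

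A list of 20 genes was read as immediate early genes outside AP-1. Many, but not all, of them are induced by signals that induce *Fos*. Of the 20, 11 were higher and 6 lower in both sets, against 36.5% and 41.3% of all genes. With the table block 10 were called higher and 3 lower (*Ier2*, *Klf2* and *Klf6*), against 14.6% and 12.8%. Their median log2 fold change was 0.43, while that of the 9 AP-1 and Batf genes was -0.06. *Nr4a2*, a nuclear receptor, was at 16.4 and 2.67 CPM in the Lrig1+ and Lrig1- libraries of set 1 and at 6.55 and 0.722 CPM in set 2. *Egr2*, a zinc finger factor downstream of the antigen receptor, was at 56.2 and 16.9 CPM in set 1 and at 60.6 and 16.4 CPM in set 2, and *Gadd45b*, a stress-response gene, had log2 ratios of 1.59 and 1.68. Without the block 0 of the 20 passed.

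Of 10 heat shock genes, which the handling of cells can induce along with *Fos* and *Jun*, 3 were called higher with the block (*Hsp90aa1*, *Hspd1* and *Hspe1*, with log2 fold changes of 0.30 to 0.36) and 1 lower (*Dnajb1*), against 14.6% and 12.8% of all genes, with a median log2 fold change of 0.16. The summed level was 4876 and 4373 CPM in the Lrig1+ and Lrig1- libraries of set 1 and 6250.4 and 5460 CPM in set 2. *Hspa1a* was at 13.4 and 12.6 CPM in set 1 and at 1.32 and 1.46 CPM in set 2, so that it was higher in set 1, like *Fosb* and *Jun*, with little difference between the groups. *Hspa1b* and *Hsph1* were also higher in set 1 in each group. The other heat shock genes of the list, and the summed level, went the other way and were higher in set 2. Their part in the difference between the sets was not tested.

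Of 32 other bZIP genes, 30 could be tested, and *Fosl1* and *Batf2*, the remaining Fos and Batf genes, were at most at 0.174 CPM and were left out by the filter. With the block 9 were called higher and 7 lower, against 14.6% and 12.8% of all genes, and without it 0. *Jdp2*, a partner of Jun that can repress AP-1, was at 3.69 and 0.794 CPM in the Lrig1+ and Lrig1- libraries of set 1 and at 4.21 and 1.02 CPM in set 2. *Nfil3*, a bZIP factor induced by cytokines, was at 19.6 and 2.57 CPM in set 1 and at 24.0 and 3.28 CPM in set 2, and *Cebpa*, known from myeloid cells, at 12.6 and 1.40 CPM in set 1 and at 26.9 and 2.50 CPM in set 2. *Bach2*, a repressor that competes with AP-1 for its sites in T cells, was lower in CD4+Lrig1+ T cells, at 153 and 249 CPM in set 1 and at 54.6 and 107 CPM in set 2.

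**Figure D5:**
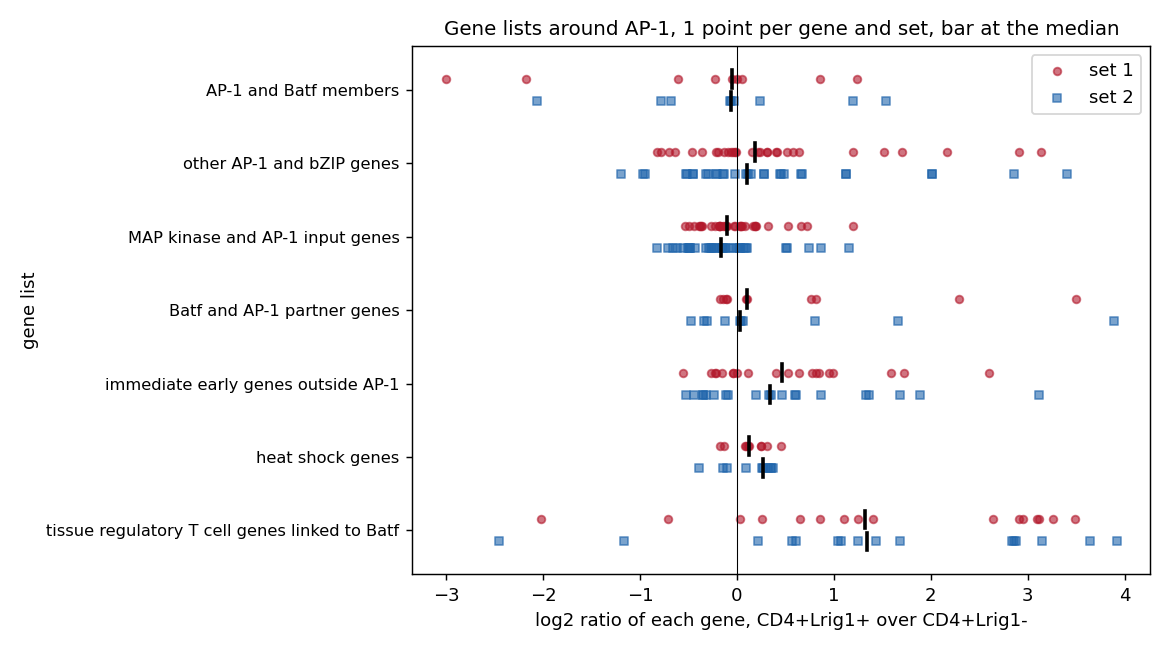
Each point is the log2 ratio between the groups (Lrig1+ over Lrig1-) of 1 gene in set 1 (red circles) or set 2 (blue squares), in rows by gene list, and black bars mark the medians. The 9 AP-1 and Batf genes have medians of -0.05 and -0.07, and the tissue regulatory T cell genes linked to Batf have 1.32 and 1.34.

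Markers of other cells differed too, and their part in the levels above was not tested. Neutrophil markers (5 of 6 tested) summed to 6.79 and 14.4 CPM in the Lrig1+ and Lrig1- libraries of set 1 and to 31.1 and 77.5 CPM in set 2. *Ly6g* was at 0 in both libraries of set 1. Macrophage and monocyte markers summed to 59.6 and 64.0 CPM in set 1 and to 281 and 275 CPM in set 2, with members on both sides. With the table block 3 of 10 were called higher (*Csf1r*, *C1qa* and *C1qb*) and 2 lower (*Itgam* and *Mpeg1*), against 14.6% and 12.8% of all genes. In the Lrig1- library of set 1, where *Atf3* was high, the dendritic cell marker *Itgax* was at 29.5 CPM, against 17.4 CPM in the Lrig1- library of set 2 and 4.42 and 6.27 CPM in the Lrig1+ libraries. Of the other dendritic cell markers, *Flt3* and *Zbtb46* were also higher in that library than in the Lrig1- library of set 2. *Siglech*, *Cd209a*, *Clec9a* and *Xcr1* were lower in it, and the whole list summed to 59.0 against 61.5 CPM. B cell markers summed to 94.7 and 76.2 CPM in set 1 and to 386 and 763 CPM in set 2. Of these, 8 of 10 were lower in both sets and 0 higher, against 41.3% and 36.5% of all genes. *Cd22* and *Cd79b* were higher in set 1 alone. NK cell markers summed to 31.8 and 29.2 CPM in set 1 and to 70.8 and 97.1 CPM in set 2. Of these, 5 of 6 were lower in both sets, against 41.3% of all genes. *Eomes*, which T cells can also express, was higher, at 24.1 and 4.20 CPM in set 1 and at 41.3 and 9.18 CPM in set 2. The 8 T cell markers summed to 4032 and 3814 CPM in set 1 and to 5902 and 5828 CPM in set 2, with a median log2 fold change of 0.06.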

How the data were processed

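The authors sorted splenic CD4+ T cells by Lrig1, sequenced stranded mRNA libraries, trimmed, mapped and assembled the reads, and deposited transcript tables. The submitters' processing notes name Trimmomatic 0.38, HISAT2 2.1.0, Bowtie2 2.3.4.1, StringTie 2.1.3b and the build GRCm38. The estimated counts are those deposited by the authors for each transcript, not normalized. FPKM, which the authors scaled by transcript length and by the mapped fragments of a library, is used as deposited. TPM values of the authors are deposited beside them and were not used.

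Counts were summed over transcripts by gene symbol. Genes left by filterByExpr were normalized by TMM and tested with edgeR 4.0.16 (R 4.3.3, quasi-likelihood, Benjamini-Hochberg adjusted p under 0.05), with the group as the only term. Standard errors given with this test are the absolute log2 fold change divided by the square root of the test's F statistic. A prior count of 2 entered the log2 ratios between the libraries of a set. Alternatives used DESeq2 1.42.0, limma 3.58.1 and a term for the table. The fits were tested on simulated counts. Positions are those in the tables, identical to RefSeq on GRCm38.p6. Tables were read with Python 3.11.15. The 9 genes and the gene lists were chosen with earlier results of these data known. Of each list, genes were picked by the largest absolute mean log2 ratio within sets among those with at least 50 counts on average. Not every gene picked in this way is named above. *Irf8*, *Runx1*, *Dnajb1*, *Ier2*, *Klf2*, *Klf6*, *Map2k3*, *Mapk11*, *Rasgrp1*, *Nras*, *Csf1r*, *Mpeg1*, *Itgax*, *Xcr1*, *Zbtb46*, *Clec9a*, *Cd22*, *Cd79b*, *Gzmb*, *Cxcr6*, *Hspa1a*, *Hspa1b*, *Hsph1*, *Bach2*, *Fosl1*, *Batf2*, *Ly6g* and the T cell markers *Cd3e*, *Cd3d*, *Cd3g* and *Cd4* were named after their values were seen. The 6 samples of the labels give 4 libraries here, because 6 columns of a further table do not name the group and were not used. The columns carry no replicate numbers. The list of erythroid markers is not reported here.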

Additional observations from a re-analysis of the deposited data

How the results depend on the processing

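The table block, which treats the table as the pairing of the libraries, moved the calls most: edgeR's quasi-likelihood test then called 2358 genes higher and 2056 lower (2208 and 2388 with DESeq2 size factors, chosen after seeing the data), the DESeq2 Wald test with the replicate block 1847 and 1960, and limma on log2(FPKM + 1) with it 1911 and 1016. Without the block, edgeR's quasi-likelihood test and limma called 0 and 0. Of the 9 genes, 2 were called higher in each of these 4 fits and 3, 3, 2 and 1 lower. The shares of all genes in either direction were 27.4%, 28.5%, 23.6% and 18.2%. *Batf3*, which passed the filter through the Lrig1- libraries, where it is high, was among the lower calls of both edgeR fits. It was the only lower call of limma. The block in the first of these fits changed no other call among the 9 than the 5 given above. Columns carry no replicate numbers, so the pairing rests on the table alone. Without the block, the DESeq2 Wald test called 263 and 50 genes and edgeR's exact test 196 and 17, with 0 of the 9. Leaving out 1 library at a time, without the block, gave 1 to 88 genes higher and 0 to 2 lower, and 0 of the 9. With the block, leaving out a library leaves no residual degrees of freedom and was not run. At least 10 counts in every library removed *Batf3*.

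Log2 fold changes changed sign as follows, none past the threshold. *Fos* gave 0.033 with limma on log2(FPKM + 1), with and without the block, and 0.034 on log2(FPKM + 0.1). Without the CD4+Lrig1- library of set 1, the value was 0.48 for *Fos*, 0.024 for *Fosl2*, 0.70 for *Jun*, 0.42 for *Junb* and 0.25 for *Atf3*. Without the CD4+Lrig1+ library of set 2 it was 0.34 for *Fos*, 0.36 for *Jun*, 0.28 for *Junb* and -0.016 for *Jund*, and without the CD4+Lrig1+ library of set 1 it was -0.53 for *Fosb*. The ranges were -0.47 to 0.48 for *Fos*, -0.53 to 2.69 for *Fosb*, -1.42 to 0.024 for *Fosl2*, -1.68 to 0.70 for *Jun*, -0.49 to 0.42 for *Junb*, -0.016 to 0.32 for *Jund* and -3.26 to 0.25 for *Atf3*. *Batf* (0.96 to 1.80) and *Batf3* (-2.77 to -1.95) kept their sign. By construction, these fits set libraries of different sets against each other. Within set 2, log2(FPKM + 0.1) gave ratios of 0.067 for *Fos*, 0.028 for *Junb*, 0.034 for *Atf3* (each a change of sign), -0.64 for *Fosl2* and -1.73 for *Batf3*. It gave -2.07 for *Batf3* in set 1, and a prior count of 0.5 gave -2.35 and -2.31 in the sets. Depth limits *Batf3* most, with 6 to 44 counts.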
